A study of Mus musculus with 3 samples.

Results

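The 42 genes described here encode histone deacetylases, acetyltransferases, methyltransferases and demethylases, proteins that read these marks, DNA methylation enzymes and chromatin remodelling subunits. They were chosen by symbol and not by a cut on their values, though with earlier results of these data known. They were matched to 42 of the 55536 genes measured. Messenger RNA levels came from total RNA sequencing, after ribosomal RNA depletion, of RNA from the cytosol of macrophages, primary cells grown out of the bone marrow of C57BL/6J mice. The cells had met lipid A, the part of bacterial lipopolysaccharide that Tlr4 recognises, at 100 ng/ml for 12 h, had then been kept without it for 12 h, and had received 100 ng/ml again for 60 min. The 3 libraries, replicates 1 to 3, formed 1 group, and each was made from 1 µg of RNA. The labels list a separate biological sample for each library but the same donor entry for all, and give neither sex nor age, so p-values measure only the spread between these samples, which may be technical. No untreated or once-treated cells were analysed here, so the values are levels in restimulated cells and not responses to lipid A. In such bulk samples, fewer cells of a type and less RNA per cell cannot be told apart.

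Histone acetylation is written by acetyltransferases, removed by deacetylases and read by bromodomain proteins, and it accompanies active promoters and enhancers. Methyl marks on histones can accompany active or silent genes, depending on the residue, and are written and removed by separate enzyme families. In macrophages these enzymes are known to act on inflammatory genes, whose enhancers and promoters gain or keep marks after exposure to bacterial products.

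Counts on genes totalled between 46546422 and 53364168 per library, and between 18066 and 18987 genes had a count. A gene with 0 counts could have stood at up to 0.0562 to 0.0645 CPM (counts scaled to a fixed library total), which is 3 counts and takes in counting error alone. Macrophage markers matched the label, since 9 of 9 were above 1 TPM (counts per length of transcript, scaled to a fixed total), with Lyz2 highest at 3530 ± 672 TPM and Itgam lowest at 31.8 ± 6.30 TPM (SD, n = 3). By the test described for the 42 genes, 0 of 8 T and NK cell and 0 of 6 erythroid markers lay above that level. Dendritic cell (0 of 6) and stromal (0 of 6) markers were not above it either, but 2 and 3 of them could not be placed. Among these were Batf3, at 2.02, 1.08 and 1.16 TPM, and Col1a1, at 0, 2.53 and 1.28 TPM in replicates 1, 2 and 3. Neutrophil markers passed in 2 of 8 and B cell markers in 1 of 6. Nuclear RNA was not absent from this cytosolic fraction. The summed level of Malat1, Neat1, Kcnq1ot1 and Rn7sk was 27900, 27000 and 68700 TPM in replicates 1, 2 and 3. Nearly all of this was Rn7sk, at 27778, 26912 and 68232 TPM. Malat1 stood at 112, 90.6 and 452 TPM and Neat1 at 10.9, 7.10 and 29.7 TPM, and Kcnq1ot1 was below 1 TPM, at a mean of 0.02 TPM.

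Most of the 42 genes were present at moderate levels. Their median was 9.18 TPM, against 3.09 TPM over the 14374 protein-coding genes tested, and 35 of the 42 stood above that coding median. Over the 9176 coding genes with a mean of at least 1 TPM the median was 8.08 TPM, close to that of the 42. A gene was placed above or below 1 TPM by limma on log2(TPM + 1), with Benjamini-Hochberg adjusted p under 0.05 over all genes tested. By this rule 37 of the 42 genes (88.1%) lay above 1 TPM, compared with 44.5% of the 20685 genes tested and 61% of protein-coding genes. Only Hdac11 lay below, where 50.4% of genes tested and 33.8% of coding genes did, and Hdac6, Hdac7, Hdac9 and Hdac10 could not be placed. All 5 genes that were not above the level were therefore classical deacetylases, and the genes of every other role passed. Placing 1 TPM on the scale of coding RNA alone, which shifts every gene up by 1.54, 1.79 and 1.86 on the log2 scale in replicates 1, 2 and 3, put 41 genes above and left Hdac11 below. In a second set of tables, made by the authors directly from the reads, TPM ran lower, at a median of 0.46 of the first over coding genes and 0.468 over the 42 genes. The same 1 TPM is thus a higher level there, and 35 genes lay above it and 5 below.

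**Figure D1:**
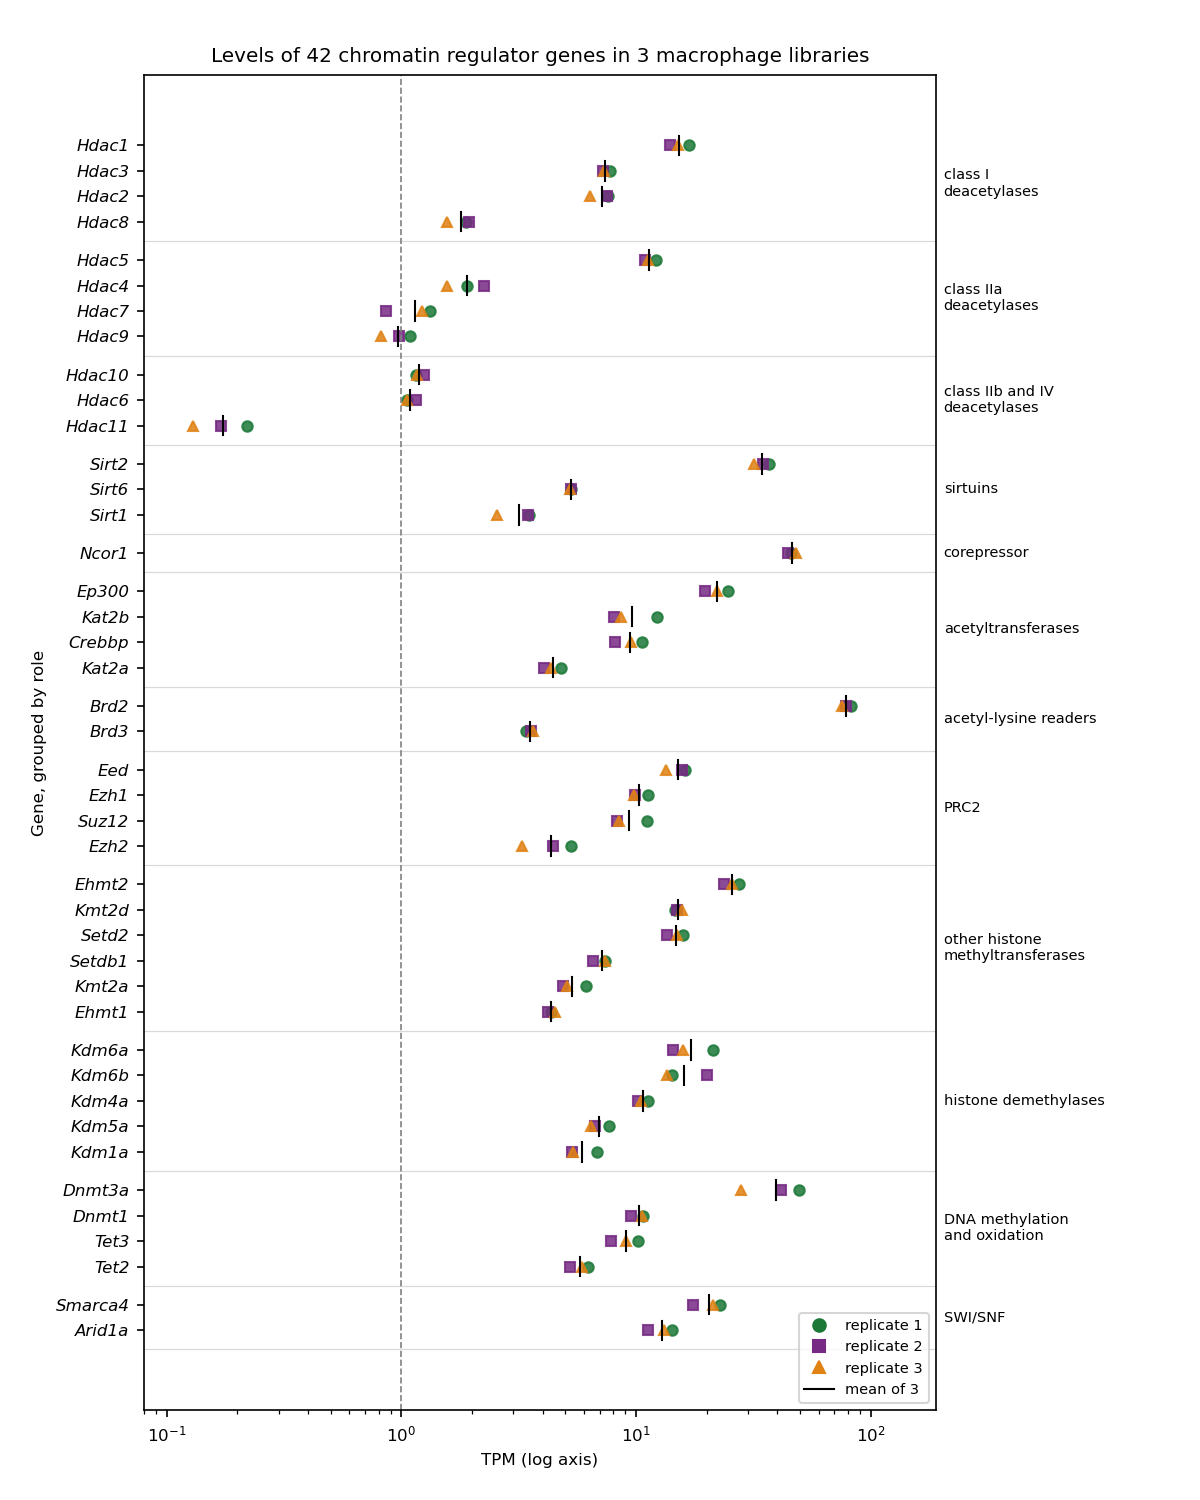
TPM of each of the 42 genes on a log axis, grouped by role, with a point for each of the 3 libraries and a bar at their mean; the dashed line marks 1 TPM. Brd2 stands highest at 75.5 to 82.7 TPM and Hdac11 lowest at 0.130 to 0.220 TPM.

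Among the class I deacetylases, the catalytic subunits of the large corepressor complexes, Hdac1 stood highest. It measured 16.8, 14.0 and 15.1 TPM in replicates 1, 2 and 3. Hdac2, its close paralog in the NuRD, Sin3 and CoREST complexes, measured 7.59, 7.52 and 6.38 TPM, and its values did not overlap those of Hdac1. Hdac3, the enzyme of the NCoR and SMRT complexes, measured 7.72, 7.23 and 7.29 TPM, a range that overlapped that of Hdac2. Hdac8, which acts on cohesin, was at 1.88, 1.95 and 1.57 TPM, above 1 TPM by limma (adjusted p = 0.00082). Ncor1, the corepressor scaffold that Hdac3 binds, was far higher than any of these enzymes, at 45.9, 44.6 and 48.0 TPM. It was the second gene in the order of all 42 on gene totals. On coding transcripts of at least 1500 bases it stood at 29.1 ± 2.20 TPM (SD, n = 3), at place 3.

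The class IIa deacetylases, which move between nucleus and cytoplasm in response to phosphorylation, were uneven. Hdac5 measured 12.1, 11.0 and 11.2 TPM and stood apart from the other members of its class in every library. Hdac4 measured 1.91, 2.26 and 1.56 TPM and lay above 1 TPM by limma (adjusted p = 0.00095). Hdac8 and Hdac4 were the genes no longer above 1 TPM in the second tables, where their TPM was 0.456 and 0.546 of that in the first, within the range of 0.357 to 0.628 over the 42 genes. Hdac7 measured 1.33, 0.860 and 1.23 TPM and Hdac9 1.09, 0.980 and 0.820 TPM, so their ranges overlapped each other and the level of 1 TPM (limma adjusted p = 0.36 for Hdac7 and 0.73 for Hdac9). Hdac6, the tubulin deacetylase, averaged 1.09 ± 0.0520 TPM and Hdac10, a polyamine deacetylase, averaged 1.19 ± 0.0529 TPM (SD, n = 3), and neither differed detectably from 1 TPM. Hdac11, the class IV enzyme, had 31, 39 and 26 counts, or 0.220, 0.170 and 0.130 TPM, and fell below the level (limma adjusted p = 1.7e-06). A lincRNA on the opposite strand, Gm26720, shares 22.4% of the exonic bases of Hdac4, and an unclassified transcript, Gm44002, shares 15.4% of those of Hdac11. Gm26720 was listed at 0 in all 3 libraries. Gm44002 was listed at 0, 0.18 and 0 TPM in replicates 1, 2 and 3, beside 0.170 TPM for Hdac11 in replicate 2. No source used here states the strand setting of the counting.

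Sirtuins remove acyl groups with NAD as a cosubstrate. Sirt2, which is largely cytoplasmic and acts on tubulin, was at 37.0, 34.8 and 31.9 TPM, the fourth of the 42 genes and above every classical deacetylase in every library. Sirt6, a chromatin-bound sirtuin linked to DNA repair and metabolism, had the steadiest TPM of all 42 genes, at 5.31, 5.26 and 5.23 TPM. On counts scaled between libraries, described below, it was not the steadiest. Sirt1, a nuclear sirtuin with histone and transcription factor substrates, measured 3.51, 3.46 and 2.55 TPM, low in replicate 3. Sirt3, Sirt4, Sirt5 and Sirt7, the other sirtuins, ran from 17.2 ± 0.207 TPM for Sirt7 to 1.24 ± 0.170 TPM for Sirt5 (SD, n = 3), and 3 of the 4 were above 1 TPM.

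The readers and writers of acetylation included the highest gene. Brd2, a BET bromodomain protein that binds acetylated histone tails, measured 82.7, 78.3 and 75.5 TPM, and its lowest library stood above the 48.0 TPM that was the highest value of Ncor1. Brd3, its paralog, measured 3.40, 3.58 and 3.65 TPM. The acetyltransferase Ep300, a general coactivator at enhancers, measured 24.6, 19.8 and 22.2 TPM, and its paralog Crebbp 10.6, 8.15 and 9.50 TPM, with no overlap. Kat2b measured 12.3, 8.04 and 8.62 TPM, and Kat2a, its paralog in SAGA-type coactivator complexes, measured 4.81, 4.06 and 4.35 TPM. All 11 other acetyltransferases were above 1 TPM, from Ncoa3 at 25.4 ± 3.75 TPM to Kat6b at 1.62 ± 0.0702 TPM (SD, n = 3). Values of the 4 acetyltransferases summed to 52.4, 40.0 and 44.6 TPM, against 34.0, 30.7 and 30.4 TPM for the 4 class I deacetylases. Ep300 made up the largest part of the first sum, and on coding transcripts of at least 1500 bases it measured 15.1, 11.0 and 13.9 TPM. The gap between the sums thus depended on the transcript models counted.

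Polycomb repressive complex 2 (PRC2) writes a silencing methyl mark on histone H3, through Ezh1 or Ezh2 bound to Eed and Suz12. Ezh1 measured 11.3, 9.93 and 9.80 TPM, and Ezh2, the form known for its link to proliferation, measured 5.31, 4.43 and 3.28 TPM, so Ezh1 stood above Ezh2 in 3 of 3 libraries. Eed averaged 15.1 ± 1.47 TPM and Suz12 9.31 ± 1.63 TPM (SD, n = 3). Of the 6 accessory PRC2 subunits, 4 were above 1 TPM, with Aebp2 highest at 12.4 ± 2.41 TPM and Epop lowest at 0.210 ± 0.0557 TPM.

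Among the other methyltransferases, Ehmt2 (G9a), which methylates histone H3 at silenced euchromatin, measured 27.6, 23.8 and 25.7 TPM. Its partner Ehmt1 (GLP) measured 4.34, 4.20 and 4.50 TPM, and there was no overlap between them. Kmt2d, which marks enhancers, averaged 15.1 ± 0.481 TPM, Setd2, which marks transcribed gene bodies, averaged 14.8 ± 1.17 TPM, and Setdb1, a silencer of retroelements, averaged 7.13 ± 0.465 TPM (SD, n = 3). Kmt2a (MLL), which acts at promoters, was lower at 5.36 ± 0.664 TPM. All 8 listed subunits of the various COMPASS complexes, in which Kmt2 enzymes work, were above 1 TPM. Their median was 9.42 TPM, from Hcfc1 at 14.7 ± 1.50 TPM to Paxip1 at 1.77 ± 0.310 TPM (SD, n = 3). Of 23 other methyltransferases 22 were above, with Nsd3 highest at 24.8 ± 4.47 TPM and Suv39h2, the exception, at 0.217 ± 0.0153 TPM.

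The demethylases included the pair that removes the Polycomb mark. Kdm6a (Utx) measured 21.3, 14.4 and 15.8 TPM, and Kdm6b (Jmjd3), known in macrophages as a gene induced by lipopolysaccharide, measured 14.3, 20.1 and 13.6 TPM. Their ranges overlapped, with Kdm6b above Kdm6a in replicate 2 alone on these gene totals. Kdm4a, a Jumonji demethylase, averaged 10.7 ± 0.537 TPM, Kdm5a, which removes promoter methylation from histone H3, 6.93 ± 0.635 TPM, and Kdm1a (LSD1), the flavin-dependent enzyme of the CoREST complex, 5.86 ± 0.859 TPM (SD, n = 3). Among 16 other demethylases, 13 were above 1 TPM, from Jmjd1c at 18.6 ± 0.191 TPM to Kdm4d, which was among the 2 below, at 0.00667 ± 0.00577 TPM.

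Of the DNA methylation genes, the de novo methyltransferase Dnmt3a stood highest, at 49.6, 41.5 and 28.1 TPM, with replicate 3 lowest. Dnmt1, the maintenance methyltransferase, measured 10.7, 9.51 and 10.6 TPM, below Dnmt3a in 3 of 3 libraries. Tet3 averaged 9.04 ± 1.19 TPM and Tet2 5.77 ± 0.515 TPM (SD, n = 3), both enzymes that oxidise methylcytosine. Tet1, the third enzyme of that family, was below the level at 0.0233 ± 0.0231 TPM. The SWI/SNF remodelling subunits Smarca4 (Brg1), the ATPase, and Arid1a, a targeting subunit, measured 22.7, 17.6 and 21.2 TPM and 14.3, 11.3 and 13.1 TPM, and 15 of 16 other subunits of the complex were above 1 TPM. Of those, Smarcc2 was highest at 24.2 ± 0.614 TPM and Smarcd3 lowest at 0.07 ± 0.0265 TPM. Among 9 other DNA methylation genes 5 were above, with Uhrf2 highest at 11.5 ± 2.22 TPM and Tet1 lowest (SD, n = 3).

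In the order of the 42 means, 34 of the 41 neighbouring pairs had overlapping ranges. The 7 gaps lay between Brd2 and Ncor1, Sirt2 and Ehmt2, Tet3 and Hdac3, Sirt6 and Kat2a, Sirt1 and Hdac4, Hdac8 and Hdac10, and Hdac9 and Hdac11. Across the 130 other chromatin genes listed with them (corepressor, acetyltransferase, reader, methyltransferase, demethylase, DNA methylation and remodelling genes), 112 were above 1 TPM, 14 below and 4 not placed, with a median of 6.09 TPM. Highest and lowest were Mbd2 at 49.7 ± 6.35 TPM and Rcor2 at 0.02 ± 0.01 TPM among 18 corepressor subunits, of which 17 were above. The 19 other readers listed ranged from Brd7, a bromodomain subunit of SWI/SNF complexes, at 24.7 ± 3.10 TPM to the Polycomb reader Cbx2 at 0.05 ± 0.0346 TPM (SD, n = 3), and 14 were above.

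Ratios between related genes were taken within each library, so that library scaling cancels. They are given as a description with no test, since the exact sign-flip test over 3 libraries cannot give a p under 0.25. In 13 of 14 pairs the same gene was higher in all 3 libraries. The share over other pairs of genes was not computed, so this count is not read as a trait of related genes. The widest gap was Brd3 over Brd2, with log2 ratios of −4.60, −4.45 and −4.37 in replicates 1, 2 and 3. Hdac7 over Hdac5 (−3.19, −3.67 and −3.19) and Ehmt1 over Ehmt2 (−2.67, −2.50 and −2.52) followed. As folds, the mean ratios of these 3 pairs were 0.045, 0.0981 and 0.169.

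On the positive side, Dnmt3a over Dnmt1 gave 2.21, 2.13 and 1.40, Kmt2d over Kmt2a 1.27, 1.62 and 1.62, and Ezh1 over Ezh2 1.09, 1.16 and 1.58. Crebbp over Ep300 was the tightest ratio, at −1.21, −1.28 and −1.22. Hdac2 over Hdac1 averaged −1.10 ± 0.18, Hdac3 over Hdac1 −1.04 ± 0.087, Kat2b over Kat2a 1.11 ± 0.21, Hdac4 over Hdac9 0.98 ± 0.20, Tet3 over Tet2 0.64 ± 0.066 and Suz12 over Eed −0.71 ± 0.20 (SD, n = 3). The exception was Kdm6b over Kdm6a, at −0.58, 0.48 and −0.22. Without replicate 2 its mean was −0.40, against −0.10 over all 3 libraries, and without replicate 1 it was 0.13.

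**Figure D2:**
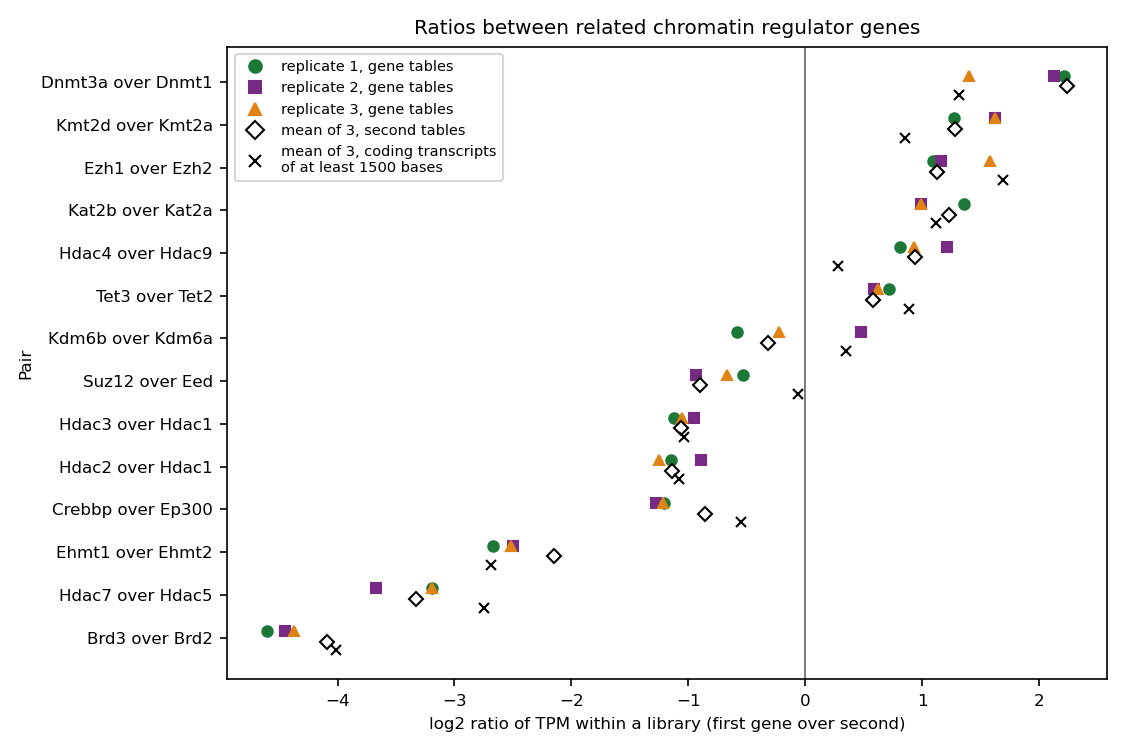
Log2 ratio of TPM between 14 pairs of related genes, first gene over second, with a coloured point for each library, a diamond for the mean in the second tables and a cross for the mean over coding transcripts of at least 1500 bases. All 3 libraries of 13 pairs lie on one side of 0, and Kdm6b over Kdm6a straddles it.

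Part of these ratios depended on which transcript models were summed. When only coding transcripts of at least 1500 bases were used, an alternative chosen after the values were seen that drops non-coding and short models together, Crebbp over Ep300 averaged −0.55 in place of −1.24, Hdac4 over Hdac9 0.28 in place of 0.98, and Kmt2d over Kmt2a 0.85 in place of 1.50. Suz12 over Eed came to −0.01, −0.06 and −0.10 on those transcripts, near equality. Kdm6b over Kdm6a was −0.10, 0.85 and 0.31 there, so its mean turned to 0.35 and Kdm6b was the higher in replicates 2 and 3. Dnmt3a over Dnmt1 averaged 1.32 in place of 1.91, Hdac7 over Hdac5 −2.75 in place of −3.35, and Brd3 over Brd2 −4.01 in place of −4.48. Ezh1 over Ezh2 was wider, at 1.69 ± 0.080, as was Tet3 over Tet2, at 0.89 ± 0.12 (SD, n = 3). Ehmt1 over Ehmt2 was −2.69, Hdac2 over Hdac1 −1.08, Hdac3 over Hdac1 −1.04 and Kat2b over Kat2a 1.12.

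The 3 libraries were alike for most of these genes. On counts scaled by TMM, the trimmed mean method of edgeR, the median coefficient of variation was 7.69% over the 40 genes with a mean of at least 1 TPM, against 8.91% over 9176 coding genes at that level. It was under 10% for 29 of the 40 genes, and for 56.8% of those coding genes. TPM placed 32 of the 42 genes highest in replicate 1, where 68.6% of coding genes were also highest, while TMM-scaled counts placed 12 there and 18 in replicate 3, where 36.9% and 26.5% of coding genes were highest. The median coding gene differed from its own mean by 0.13, −0.03 and −0.10 on the log2 scale of TPM in replicates 1, 2 and 3, and by 0.02, 0.01 and −0.03 after TMM scaling. Values of single genes are therefore given on TMM-scaled counts below.

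Variation beyond counting noise was tested by a chi-square test on rounded counts against the library totals, adjusted by Benjamini-Hochberg over all genes tested. It was found for 33 of the 42 genes (78.6%), and for 69.3% of the 13075 genes tested and 71.5% of coding genes. With TMM scaling it was found for 31 genes, 28 of them the same, against 67% of genes tested, 69% of coding genes and 75.7% of the 8062 coding genes whose counts fall within the middle 90% of these genes. The share among the 42 genes was near this background, and the test sets the spread between samples against counting noise alone. By the SD of log2(TPM + 1), the 5 most variable of the 42 were Dnmt3a, Kat2b, Kdm6b, Ezh2 and Kdm6a. By the coefficient of variation of TMM-scaled counts the order was another, led by Kdm6b, Dnmt3a, Hdac4, Kat2b and Sirt1, with Kdm6a at place 9 and Ezh2 at place 16. Unless TMM scaling is named, the chi-square p-values below are those against library totals.

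Kdm6b had 139, 220 and 148 TMM-scaled CPM in replicates 1, 2 and 3, high in replicate 2. Its coefficient of variation of 26.3% was the largest of the 42 genes and was passed by 5.58% of coding genes. The chi-square adjusted p was 1.1e-285 over 3 libraries, 1e-259 with TMM scaling and 4.9e-12 without replicate 2. The second tables had the same order, with 132, 217 and 142 CPM. Summed over 6 stromal markers, the level was 0.0900, 7.08 and 3.15 TPM in the same libraries, with Col1a1 highest at a mean of 1.27 TPM and none at 0 in all libraries, and its part in this result was not tested.

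Dnmt3a had 311, 305 and 228 TMM-scaled CPM, low in replicate 3. Its coefficient of variation was 16.5%, passed by 17.3% of coding genes, and the chi-square adjusted p was 6.6e-123, or 7.6e-160 with TMM scaling. Without replicate 3 the p against totals was 0.048, close to the threshold. In the second tables it had 283, 294 and 212 CPM. Replicate 3 was also the library with the highest sum of the 4 nuclear RNAs, 68700 TPM against 27900 and 27000 TPM in replicates 1 and 2. Nearly all of that sum was Rn7sk, and its part in the result was not tested.

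Kat2b and Kdm6a were both high in replicate 1. Kat2b had 80.4, 60.7 and 66.9 TMM-scaled CPM (chi-square adjusted p = 8.6e-22, or 3.7e-32 with TMM scaling), and its coefficient of variation of 14.5% was passed by 22.7% of coding genes. Kdm6a had 114, 92.0 and 91.2 TMM-scaled CPM (chi-square adjusted p = 4.7e-20, or 7.2e-35 with TMM scaling), and without replicate 1 the p against totals was 0.82. Its coefficient of variation of 12.8% was passed by 29.1% of coding genes. The 9 macrophage markers also summed highest in replicate 1, at 6580, 4970 and 5030 TPM, but 68.6% of coding genes were highest there in TPM. Most of the sum was Lyz2, at 4300, 3169 and 3107 TPM. Csf1r (140, 153 and 120 TPM) and Cd14 (178, 278 and 140 TPM) were highest in replicate 2, and the other markers in replicate 1. The part of these markers in the values of Kat2b and Kdm6a was not tested. Ezh2 had 13.8, 12.6 and 11.6 TMM-scaled CPM and did not pass against library totals (chi-square adjusted p = 0.17), but did with TMM scaling (0.015), and 51.2% of coding genes passed its coefficient of variation of 8.73%. Hdac4 and Sirt1, named after their values were seen, had 15.5, 19.3 and 14.8 and 18.7, 20.7 and 15.5 TMM-scaled CPM, both highest in replicate 2. Their coefficients of variation of 14.7% and 14.2% were passed by 22.2% and 23.8% of coding genes, and without replicate 2 the chi-square adjusted p of Hdac4 was 0.86. Steadiest was Ezh1, at 68.5, 67.1 and 67.4 TMM-scaled CPM, a coefficient of variation of 1.13%. Sirt6, the steadiest by TPM, had 13.0, 14.4 and 14.5 TMM-scaled CPM. Its coefficient of variation was 6.07%, at place 24 from the most variable, and its chi-square adjusted p was 0.0058, or 0.11 with TMM scaling.

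**Figure D3:**
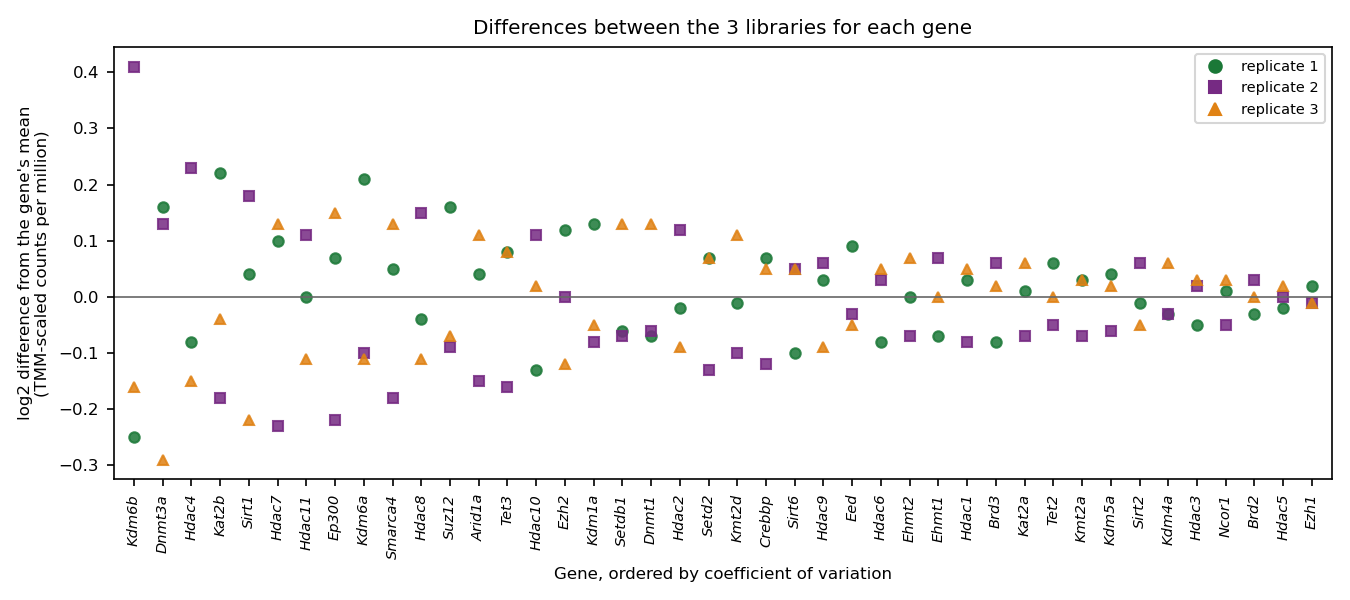
Log2 difference of each library from the gene's mean over 3 libraries, on TMM-scaled CPM, with genes ordered by coefficient of variation from 26.3% for Kdm6b to 1.13% for Ezh1. Kdm6b is high in replicate 2 and Dnmt3a is low in replicate 3.

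GENCODE M21 annotates 391 transcripts of the 42 genes, and each gene's TPM is the sum over its own. In the first tables the transcript with the largest share was a coding one in 42 of 42 genes, and it was the same one in the second tables for 37. Among the other 5 was Kdm5a, whose largest transcript in the second tables was Kdm5a-207, a processed transcript, at 32% against 30% for the coding Kdm5a-201. In the first tables the transcript with the largest share held at least 50% of the gene's TPM in 33 genes and at least 90% in 7. The same counts over all coding genes were not computed, so these describe the 42 genes alone. Hdac1, Hdac2, Hdac3, Hdac8, Kat2b and Kdm6b were measured almost wholly as one coding form, with mean shares from 98.3% to 99.7%, and Hdac11 followed at 90.9%. Ncor1 was the most divided, with Ncor1-204 at 14.6% of TPM, although that transcript, the longest of its main forms at 8852 bases, held 39.4% of its counts.

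Sirt2 was split between Sirt2-202, at 46.5%, 45.5% and 47.5%, and Sirt2-201, at 42.4%, 45.8% and 42.3%, and these ranges overlapped. Dnmt3a was split among the short coding form Dnmt3a-205, the long forms Dnmt3a-218 and Dnmt3a-201, and Dnmt3a-214, a retained-intron model of 369 bases. Dnmt3a-205 held 29.8%, 22.1% and 19.1% of the gene's TPM and Dnmt3a-201 held 13.9%, 19.8% and 23.9%, so Dnmt3a-201 passed Dnmt3a-205 in replicate 3 alone. Dnmt3a-218, the other long form, held 24.4%, 22.1% and 21.7%. On counts in the first tables, Dnmt3a-218 held 44.7% and Dnmt3a-201 41.5%, against 11.6% for Dnmt3a-205. In the second tables Dnmt3a-201 averaged 6.28%, so its share depended on how the transcripts were quantified.

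Retained-intron models held at least 10% of TPM in 9 of the 42 genes, and in 6 of these in the second tables as well. The share of all coding genes at this cut was not computed, so the count describes these genes alone. Ep300 had the largest such share, 35.5%, 38.8% and 31.9% in replicates 1, 2 and 3, followed by Hdac5 at 28.6 ± 3.17%, Dnmt3a at 23.1 ± 3.21%, Ezh2 at 19.6 ± 6.43% and Ncor1 at 18.3 ± 3.81% (SD, n = 3). In the second tables Ezh2 was at 8.98%, under the 10% cut. The retained-intron models are short, so a few counts give much TPM. They held 3.46% of counts in Ep300, 7.39% in Hdac5, 0.95% in Dnmt3a, 3.67% in Ezh2 and 2.68% in Ncor1. Summed over the 42 genes, they held 7.35%, 7.96% and 7.75% of TPM, against 2.85%, 2.94% and 3.21% over all coding genes. On counts the order was the other way, 0.862%, 0.870% and 1.15% for the 42 genes and 1.33%, 1.33% and 1.57% for coding genes.

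Models marked for nonsense-mediated decay, in which a premature stop codon is expected to trigger degradation, held 22.9%, 27.6% and 23.3% of the TPM of Brd2, and 33.1% of its counts. The second tables gave 26.0% of TPM for Brd2. Nearly all of it was Brd2-207, at 22.7 ± 2.47% (SD, n = 3). Coding transcripts of Brd2 alone stood at 55.4 ± 3.58 TPM, still the highest of the 42 genes on coding transcripts of at least 1500 bases. Sirt1 also had a large share in this class, 26.2 ± 7.10%, but 9.96% in the second tables. For Kdm5a, the processed transcript Kdm5a-207, which has no open reading frame, held 38.5 ± 3.31% of TPM and 6.85% of counts.

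**Figure D4:**
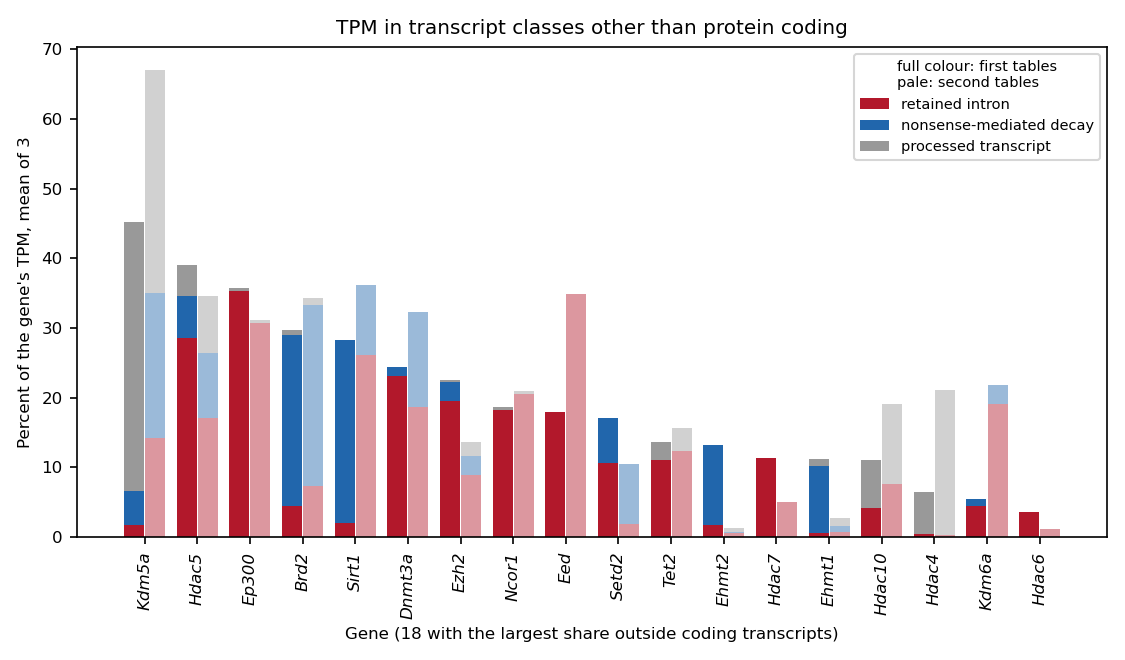
Percent of each gene's TPM in retained-intron, nonsense-mediated decay and processed transcripts, stacked, as the mean of 3 libraries, in the first tables (full colour) and the second tables (pale), for the 18 genes with the largest such share. Outside coding transcripts, the largest class is retained intron for Ep300, at 35.4% of the gene's TPM. It is nonsense-mediated decay for Brd2, at 24.6%, and processed transcript for Kdm5a, at 38.5%.

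Some genes were divided between coding forms that differ by 1 short segment in frame. The sequences below show those segments for the 4 genes in which both sets of tables gave both forms at similar shares, a choice made after the values were seen. They are transcript sequences of GENCODE M21 on mm10, 5′ to 3′, with 30 bases on each side and the extra segment in capitals.

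Kat2a is on the minus strand, and its segment of 3 bases, the first bases of exon 9 of 18 in Kat2a-202, lies at chr11:100708983-100708985.
Kat2a-202: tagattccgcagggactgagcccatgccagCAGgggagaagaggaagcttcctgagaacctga
Kat2a-201: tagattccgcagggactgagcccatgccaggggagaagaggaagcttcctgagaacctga
The longer form held 37.4%, 34.0% and 46.7% of the gene's TPM in replicates 1, 2 and 3, and the shorter form 61.5%, 62.3% and 51.7%. The shorter form was thus the larger in each library, by least in replicate 3. Of both forms together, the longer made up 40.2 ± 6.42%, and 40.3 ± 5.53% in the second tables (SD, n = 3).

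Setdb1 is also on the minus strand, and its segment of 3 bases, the first of exon 12 of 22 in Setdb1-202, lies at chr3:95340063-95340065.
Setdb1-202: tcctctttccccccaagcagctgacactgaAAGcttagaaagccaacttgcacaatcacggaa
Setdb1-203: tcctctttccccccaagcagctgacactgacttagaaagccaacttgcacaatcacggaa
Here the longer form was the larger, with 75.5%, 74.4% and 82.7% of TPM, against 18.5%, 22.9% and 11.6% for the shorter form. Of both forms, the longer made up 81.5 ± 5.71%, and 83.9 ± 5.11% in the second tables (SD, n = 3).

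Kmt2a, on the minus strand, has a segment of 9 bases at the end of exon 14 of 36 in Kmt2a-202, at chr9:44833898-44833906.
Kmt2a-202: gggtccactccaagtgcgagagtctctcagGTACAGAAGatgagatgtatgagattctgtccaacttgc
Kmt2a-201: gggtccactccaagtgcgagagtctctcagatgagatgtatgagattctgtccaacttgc
The longer form was the minor one, with 16.8%, 20.9% and 8.45% of TPM, against 73.5%, 74.2% and 86.6% for the shorter form. It was lowest in replicate 3 in both sets of tables, at 8.89% and 8.50% of both forms.

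Kdm1a, on the minus strand, has a whole exon of 60 bases, exon 3 of 20 in Kdm1a-202, at chr4:136582040-136582099, an exon that is also alternatively included in human KDM1A.
Kdm1a-202: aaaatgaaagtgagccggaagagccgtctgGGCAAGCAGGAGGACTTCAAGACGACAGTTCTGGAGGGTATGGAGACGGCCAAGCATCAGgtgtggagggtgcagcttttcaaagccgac
Kdm1a-203: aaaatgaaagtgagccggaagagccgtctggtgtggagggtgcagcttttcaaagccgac
The form with the exon held 45.3%, 54.8% and 54.5% of TPM, and the form without it 53.1%, 42.2% and 40.9%. The forms were near equal, with the form carrying the exon larger in replicates 2 and 3 and smaller in replicate 1. Of both forms, it made up 53.2 ± 6.23%, and 55.8 ± 5.12% in the second tables (SD, n = 3).

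**Figure D5:**
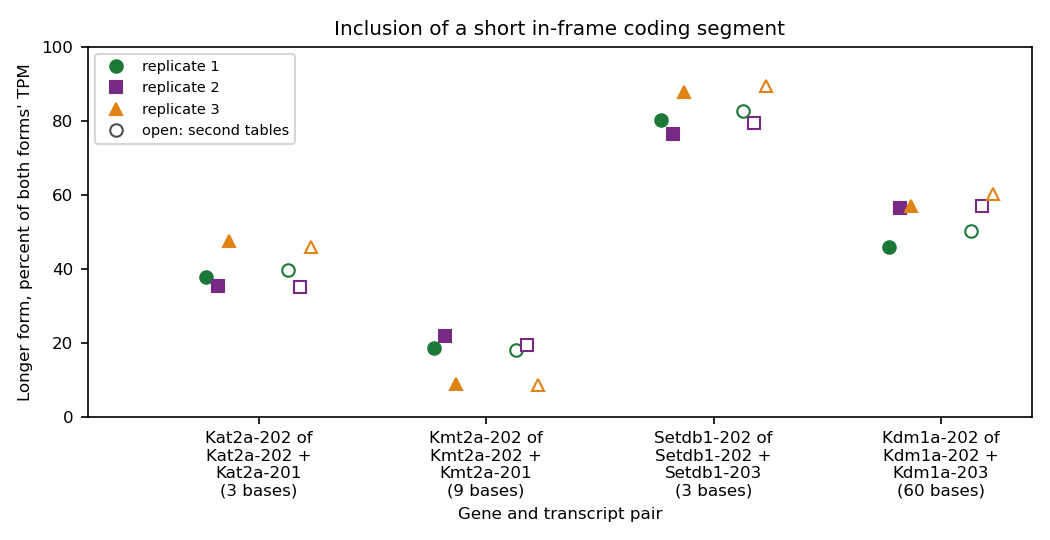
Share of the longer form among the longer and shorter coding forms of Kat2a, Kmt2a, Setdb1 and Kdm1a, in percent of the TPM of both, for each library in the first tables (filled) and the second tables (open). Setdb1 lies highest, at 76.5% to 89.4%, and Kmt2a lowest, at 8.50% to 22.0%.

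For Smarca4 and Ehmt1 the tables differed. Smarca4-204 held 39.4%, 41.2% and 41.8% of TPM in the first tables and 72.6%, 76.7% and 76.2% in the second. Smarca4-201, which has 3 bases more in its coding sequence, held 18.3 ± 2.39% in the first tables (SD, n = 3) and 1.40%, 1.37% and 0.597% in the second. Ehmt1-210 held 26.8%, 28.3% and 20.5% in the first tables and 1.81%, 1.58% and 1.21% in the second, so no share is drawn from these forms.

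Near-identical copies could take reads from some of these genes. Hdac1 has a processed pseudogene, Gm10093, with 99.4% identity over 1444 bases, listed at 0.260, 0.160 and 0.0900 TPM, against the 14.0 to 16.8 TPM of Hdac1. The pseudogene Gm47184 matches Kmt2d at 99.6% over 455 bases and was listed at 0.110, 0.0400 and 0 TPM. Kat2b-ps matches Kat2b at 95.1% over 2479 bases and was at most 0.01 TPM. How reads shared with such copies were divided could not be checked from the tables.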

How the data were processed

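The 42 genes and the lists of other chromatin genes and cell type markers were chosen with earlier results of these data known. One gene of the reader list is not reported here and is left out of that list's counts and medians. The authors deposited expected counts for genes and transcripts, derived from reads aligned to transcripts of GENCODE M21 (build mm10), per the file headers and the text deposited with each library. The authors also deposited TPM values, which divide counts by effective length and sum to a constant, per the file headers. A second set of transcript tables, with estimated counts and TPM of its own, was made by the authors directly from the reads, per the same text, and was summed to genes. The aligner, quantifiers and strand setting were not given in the sources used here. Since TPM sums to a constant, messenger RNA reads lower in TPM where a library holds more small RNA. Coding genes held 34.5%, 29% and 27.5% of TPM in replicates 1, 2 and 3.

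All 55536 genes among 81881 entries matched the annotation. The other entries (numbered tRNA entries and spike-in controls) held 0.378%, 0.0931% and 0.0772% of counts and were left out of totals and tests. Counts on genes were 50807046, 53364168 and 46546422, and were rounded to whole numbers for count tests. The level test used limma 3.58.1 (R 4.3.3): log2(TPM + 1) was fitted with an intercept alone and set against its value at 1 TPM, with trended and robust moderation, over the 20685 genes not listed at 0 throughout. The pseudocount compresses differences among low genes. Variation was tested per gene with a chi-square test (2 degrees of freedom) where the libraries together had 30 counts or more. Calls were made at a Benjamini-Hochberg adjusted p under 0.05, over all genes tested. TMM factors came from edgeR 4.0.16 and size factors from DESeq2 1.42.0. Near copies were found with blastn 2.17.0, and other steps used Python 3.11.15, pandas 2.3.3, numpy 2.4.6, scipy 1.17.1 and matplotlib 3.10.9. Both tests were checked on simulated data. All 42 genes are accounted for, and of the other lists the highest and lowest genes are named, with the 5 of the 42 genes that had the largest SD of log2(TPM + 1). Other settings tried were 0.1 as the pseudocount, 10 as the lowest mean count, 5 TPM as the level, the second tables, TPM rescaled over coding genes, other scalings and count minimums, and leaving out each replicate. Sequences of transcripts came from GENCODE M21.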

Additional observations from a re-analysis of the deposited data

How the results depend on the processing

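Of the 42 genes, 37 lay above 1 TPM, and this count was 37 with a pseudocount of 0.1, with a mean count of at least 10 and without each replicate in turn. It was 35 in the second tables, 41 with TPM rescaled over coding genes and 26 against a level of 5 TPM, above which 26.5% of genes tested and 37% of coding genes lay. Genes below the level numbered 1 in the main test, 5 in the second tables and 9 against 5 TPM. Against 5 TPM, genes above 1 TPM that had a negative log2 difference were Hdac8 (−1.10), Hdac4 (−1.05), Sirt1 (−0.53), Brd3 (−0.40), Ezh2 (−0.19), Ehmt1 (−0.17) and Kat2a (−0.15), and Hdac8 had −0.14 against 1 TPM in the second tables. The first follow from the higher level. TPM in the second tables ran at a median of 0.46 of the first over coding genes, and at 0.456 for Hdac8, so 1 TPM is a higher level there too. Variation beyond counting noise was called in 33 genes, in 31 with TMM scaling, DESeq2 size factors or the second tables, in 32 with a minimum of 1 count, and in 24 to 26 without 1 replicate, a test with fewer samples. One gene stood above the other in all libraries in 13 of 14 pairs of related genes, in 13 with every other table or scale, and in 14 without replicate 2. The main transcript held at least 50% of TPM in 33 genes, in 28 in the second tables, and in 32 or 33 without 1 replicate. No paired analysis was possible because the libraries form 1 group. Depth limits Hdac11 most, with 26 to 39 counts per library.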
